A study of Mus musculus with 23 samples.

Results

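Imprinted genes were followed in RNA from fetal mouse hearts in which G-protein coupled receptor kinases had been deleted. The set holds 41 genes with known parent-of-origin expression, taken by symbol from the 23512 rows of the count table and all found there. In mouse, 23 of them are known to be expressed from the paternal allele and 18 from the maternal allele. An expression filter set on the whole table kept 34 of the 41, which are 20 paternally and 14 maternally expressed genes, among 13941 genes tested.

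The series compared hearts at embryonic day 13.5, all of strain C57BL/6 by label. The 7 triple-knockout libraries came from hearts that carried GRK2 fl/fl, GRK5 fl/fl and GRK6 KO/KO with Nkx2.5Cre. The 8 haploinsufficient libraries came from hearts with GRK2 fl/wt and the same GRK5 fl/fl, GRK6 KO/KO and Nkx2.5Cre, so these groups differ by label in 1 GRK2 allele and share all else. The 8 wild-type libraries came from hearts with all 3 kinase genes unmodified and no Cre, so the effects of Cre and of each lost kinase cannot be told apart in a comparison with wild type. Nkx2.5Cre drives recombination in cells that express Nkx2.5, mainly the heart muscle lineage, and floxed alleles stay intact in cells that never expressed the driver. The kinases phosphorylate activated receptors, which are then bound by arrestins and silenced. Whether the replicates of a group came from different embryos is not given, so a p-value speaks only of the variation among these libraries, part of which could be technical.

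An imprinted gene is transcribed mainly from the allele inherited from 1 parent, because DNA methylation laid down in the egg or the sperm marks a control region in its domain. Some control regions block an enhancer on the allele without the methylation, as between Igf2 and H19. Others start, on the allele without the methylation, a long noncoding RNA that silences its neighbours on the same chromosome, as Kcnq1ot1 and Airn do. Many imprinted genes set the growth of the embryo: paternally expressed genes such as Igf2, Mest and Dlk1 are mostly known to promote it, and maternally expressed genes such as Cdkn1c, Igf2r, Grb10 and H19 mostly restrain it. Many are abundant in fetal tissues, and several of these fall to low levels after birth. The libraries count transcripts without telling the alleles apart, so every value is the sum of both alleles and says nothing of whether imprinting itself was kept.

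Library totals ran from 6658000 to 13860000 counts in the triple-knockout group, from 1757000 to 11030000 in the haploinsufficient group and from 3838000 to 14050000 in wild type (4 significant digits). At 3 counts, the limit that a count of 0 allows for counting error alone, the floor lay between 0.216 and 0.451 CPM (counts scaled to the size of the library), between 0.272 and 1.71 CPM and between 0.214 and 0.782 CPM in these groups. Cre averaged 18.5 ± 5.61 CPM (SD, n = 7) in the triple knockout, 17.7 ± 4.90 in haploinsufficient hearts (n = 8) and 0.332 ± 0.341 in wild type (n = 8), and Grk2, listed as Adrbk1, averaged 34.4 ± 6.60 CPM in the triple knockout, 42.5 ± 12.04 in haploinsufficient hearts and 54.3 ± 4.25 in wild type. Grk5 averaged 14.2 ± 3.35 CPM in the triple knockout, 13.3 ± 2.23 in haploinsufficient hearts and 23.9 ± 2.50 in wild type, and Grk6 averaged 14.96 ± 3.42, 15.7 ± 4.38 and 30.7 ± 3.22 CPM in these groups, so all 3 kinase genes still had counts in the triple knockout; which exons the alleles remove is not given. The heart label was met by the cardiomyocyte markers, whose 8 genes summed to between 48860 and 90710 CPM, between 38830 and 87160 CPM and between 55910 and 77290 CPM in triple-knockout, haploinsufficient and wild-type hearts. Markers of other tissues differed between libraries. The tissue score, the mean log2 level of 9 tested of 13 markers from neighbouring organs (lung, foregut, liver, thymus) set to 0 in wild type, averaged 0.888 ± 0.904 in the triple knockout and 1.27 ± 0.883 in haploinsufficient hearts, and exceeded 1.5 in triple-knockout replicates 1 and 3 and haploinsufficient replicates 1, 7 and 8. Summed over the 13, these markers reached 40.7 to 115 CPM, 45.0 to 182 CPM and 31.1 to 62.2 CPM in the triple-knockout, haploinsufficient and wild-type groups. The neural score, from 7 tested of 10 markers of neural crest, neurons and glia, averaged 0.887 ± 0.932 in the triple knockout, 0.265 ± 0.411 in haploinsufficient hearts and 0 ± 0.452 in wild type, with summed levels of 43.8 to 156 CPM, 36.8 to 60.0 CPM and 32.6 to 48.2 CPM in these groups. Of the 7, 1 (Gap43) was called higher in the triple knockout than in wild type (14.3%, against 1.18% of all genes called). All 7 had a positive log2 fold change there, with a median of 1.22. At an edgeR unadjusted p under 0.05 stood 6 of them (85.7%, against 10.8% of all genes). No marker of either list was at 0 in every library. Foxf1 and Cldn6 of the neighbouring organs were called higher in haploinsufficient hearts than in wild type. Of 8 tested markers of skeletal muscle and cartilage, 2 (Tnnt3, Tnni2) were called higher and 3 (Col2a1, Acan, Comp) lower in the triple knockout than in wild type, and Tnnt3 and Tnni2 were also called higher and Acan lower in haploinsufficient hearts than in wild type. The macrophage marker Mrc1, 1 of 4, was called higher in the triple knockout than in wild type, with a macrophage score of 0.376 ± 0.164 in the triple knockout, 0.188 ± 0.245 in haploinsufficient hearts and 0 ± 0.260 in wild type. Of 6 endothelial markers 2 (Cdh5, Tek) were called lower in haploinsufficient hearts than in wild type. The part of muscle, cartilage, macrophage and endothelial markers in the results was not tested. In bulk tissue, fewer cells of a type and less RNA per cell cannot be told apart.

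Several members are long noncoding RNAs that carry microRNAs in their introns or exons, and their sequences are shown to identify what such hosts encode; the libraries measured the hosts, not the mature microRNAs. H19 (chr7:142575532-142578146, mm10, minus strand) holds both arms of miR-675 in its exons. Rian holds 6 mature microRNAs and Mirg 19, and the levels of these 2 hosts had the highest correlation of the pairs of neighbours compared. The 19 of Mirg have 18 different seeds, and the only seed found more than once is GGUUGCC, in miR-453 and miR-496a-5p. Mature sequences from RefSeq (GRCm38.p6) run 5′ to 3′ with the seed, bases 2 to 8, in capitals:
mmu-miR-675-5p (H19, chr7:142577112-142577133, minus): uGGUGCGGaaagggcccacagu
mmu-miR-675-3p (H19, chr7:142577078-142577099, minus): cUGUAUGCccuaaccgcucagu
mmu-miR-370-3p (Rian, chr12:109618305-109618326, plus): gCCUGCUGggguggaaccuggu
mmu-miR-453 (Mirg, chr12:109735669-109735692, plus): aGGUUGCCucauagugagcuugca
mmu-miR-496a-5p (Mirg, chr12:109739132-109739152, plus): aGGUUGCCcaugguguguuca
mmu-miR-410-3p (Mirg, chr12:109743764-109743784, plus): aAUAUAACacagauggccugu

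Peg3 and Usp29, paternally expressed neighbours on chromosome 7, start head to head inside 1 stretch of DNA by RefSeq. Their levels were positively correlated across libraries, but not called so with the neural score removed (adjusted permutation p = 0.133) or in wild type alone (0.226). A part of the shared stretch in this was not tested. RefSeq promoter windows, from 250 bases before to 50 bases after a start, share 263 of 300 bases between the pair. The Peg3 window and a CG-rich window of Ppp1r9a, the 2 members called higher in the triple knockout in a comparison, are printed with each CG pair in capitals, since CG pairs are where imprinting marks are laid:
Peg3 (GRCm38.p6 chr7:6730370-6730669, minus): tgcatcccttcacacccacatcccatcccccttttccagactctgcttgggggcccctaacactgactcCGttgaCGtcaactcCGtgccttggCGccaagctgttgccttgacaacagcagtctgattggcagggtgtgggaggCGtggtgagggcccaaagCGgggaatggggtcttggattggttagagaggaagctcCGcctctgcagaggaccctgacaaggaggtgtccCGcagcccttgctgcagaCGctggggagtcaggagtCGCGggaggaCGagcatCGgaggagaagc
Ppp1r9a (GRCm38.p6 chr6:4903061-4903360, plus): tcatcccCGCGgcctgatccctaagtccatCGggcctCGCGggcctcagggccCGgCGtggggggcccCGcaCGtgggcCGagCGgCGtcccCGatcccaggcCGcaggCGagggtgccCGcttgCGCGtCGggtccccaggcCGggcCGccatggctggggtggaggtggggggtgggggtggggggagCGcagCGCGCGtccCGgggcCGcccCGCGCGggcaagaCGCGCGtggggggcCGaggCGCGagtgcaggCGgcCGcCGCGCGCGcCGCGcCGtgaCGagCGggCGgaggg
The Peg3 window holds 13 CG pairs, and the Ppp1r9a window printed here holds 48, the highest number among 50 windows of 34 matched members. Another window of Ppp1r9a (chr6:4902725-4903024) holds 10. The median was 10 over member windows and 7 over all 32851 RefSeq windows. The hexamer TGCCGC, the motif that the imprint-protecting protein ZFP57 binds when methylated, was searched on both strands. It lay in 11 of 50 member windows, a larger share than the 11.6% of all windows. The difference in share was not tested, and windows of the same gene can overlap, as those with the hexamer at Mest do. The hexamer is not in either window printed here.

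Levels of the members spanned more than 4 orders of magnitude per unit of length, on the authors' FPKM scale. H19, a maternally expressed noncoding RNA, led with 4334, 5679 and 6126 FPKM in the triple knockout (lowest, median and highest of 7 libraries), 5306, 5945 and 7473 FPKM in haploinsufficient hearts (of 8) and 4141, 5179 and 6150 FPKM in wild type (of 8). The groups overlapped, and H19 alone took 1.35 ± 0.157% of all counts in the triple knockout, 1.54 ± 0.210% in haploinsufficient hearts and 1.27 ± 0.182% in wild type. Igf2, the paternally expressed growth factor beside it, followed with 573, 742 and 1028 FPKM in the triple knockout, 432, 629 and 859 FPKM in haploinsufficient hearts and 561, 696 and 1107 FPKM in wild type, again with overlap. Igf2r, the receptor that carries IGF2 to the lysosome for breakdown, had 452, 649 and 700 FPKM in the triple knockout, 225, 572 and 697 FPKM in haploinsufficient hearts and 363, 519 and 618 FPKM in wild type. The groups overlapped, and the lowest library was haploinsufficient replicate 4 at 225 FPKM, below the next of its group at 404 FPKM.

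Cd81, a membrane tetraspanin imprinted mainly in the placenta, had 389, 473 and 512 FPKM in the triple knockout, 402, 489 and 572 FPKM in haploinsufficient hearts and 435, 472 and 594 FPKM in wild type. Mest, a paternally expressed hydrolase-fold protein of mesoderm, had 449, 504 and 670 FPKM in the triple knockout, 325, 409 and 605 FPKM in haploinsufficient hearts and 330, 477 and 546 FPKM in wild type. Grb10, an adaptor that damps insulin and IGF receptors, had 287, 318 and 376 FPKM in the triple knockout, 223, 272 and 352 FPKM in haploinsufficient hearts and 221, 299 and 358 FPKM in wild type. For each of these genes the 3 groups overlapped. In wild type, the neighbours in the order Igf2r, Cd81 and Mest differed by less than their spread, at 511 ± 85.2, 487 ± 55.2 and 463 ± 74.7 FPKM (SD, n = 8), and Cdkn1c and Grb10 likewise at 320 ± 57.03 and 300.3 ± 46.7 FPKM.

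Together the 41 genes took 2.98 ± 0.211% of all counts in the triple knockout, 2.98 ± 0.257% in haploinsufficient hearts and 2.75 ± 0.153% in wild type. By wild-type mean, 25 members lay between Peg3 at 74.2 FPKM and Zrsr1 at 2.85 FPKM, both included, and 8 lay under 1 FPKM: Usp29, Phlda2, Slc22a18, Magel2, Calcr, Rasgrf1, Dio3 and Ascl2. Of the 7 members that did not pass the filter, Ascl2 had 17 counts over 23 libraries, Phlda2 49, Dio3 72, Rasgrf1 104, Slc22a18 113 and Calcr 159. Snrpn had 16 counts although the deposited FPKM averaged 8.23 in wild type, and 82.8% of its exon bases are shared with Snurf, so the count is a poor measure of it. The spread between replicates of the tested members gave a median biological coefficient of variation of 0.197, against 0.186 over all genes tested.

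**Figure D1:**
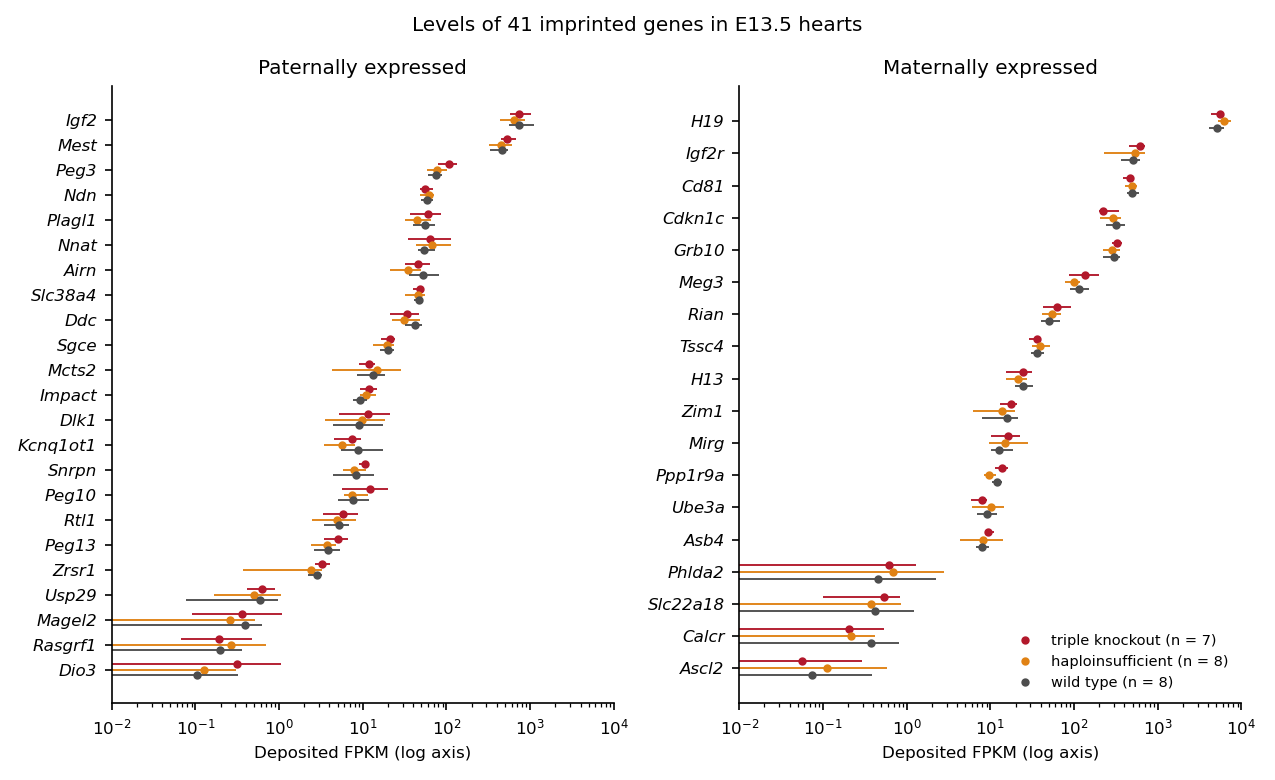
Deposited FPKM of 41 imprinted genes on a log axis, paternally expressed genes on the left and maternally expressed genes on the right. Points are group means and lines run from the lowest to the highest library, with libraries listed at 0 drawn to the left edge; H19 lies highest, at 5177 FPKM in wild type, and the ranges of the 3 genotype groups overlap for every gene.

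In the triple knockout, Peg3 rose and Cdkn1c fell relative to wild type, and none of the other 32 tested members passed the test. Peg3, a paternally expressed zinc finger protein known for roles in fetal growth and maternal behaviour, stood 1.42-fold higher. Cdkn1c, the maternally expressed cell cycle inhibitor p57 whose loss causes overgrowth, stood at 0.687 of the wild-type level. A gene was called at an adjusted p under 0.05 in edgeR's quasi-likelihood test over all 13941 genes, where 68 genes (0.488%) were called higher and 97 (0.696%) lower, 165 (1.18%) in all. Of the 34 tested members 1 was called higher and 1 lower, 5.88% together.

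Peg3 (chr7:6705960-6730419, mm10, minus strand) had 572, 759 and 836 CPM in the triple knockout (lowest, median, highest), 405, 529 and 697 CPM in haploinsufficient hearts and 424, 513 and 588 CPM in wild type. All 7 triple-knockout libraries lay above the wild-type median, and the groups overlapped, since the lowest triple-knockout library lay below the highest wild-type one. The log2 fold change was 0.51 ± 0.11 (SE; edgeR adjusted p = 0.0105), and it was 0.60 within library IDs 1 to 12 and 0.44 within IDs 19 to 30. Each of 15 fits that left out 1 library of these 2 groups kept the call. With the neural marker score as a term the log2 fold change was 0.35 (edgeR adjusted p = 0.227), and without the 5 libraries of a high tissue score it was 0.47 (edgeR adjusted p = 0.0668). Of its exon bases 13.1% are shared with an antisense gene, Peg3as, which these libraries without strand cannot tell apart.

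Cdkn1c (chr7:143458339-143461050, mm10, minus strand) had 349, 383 and 583 CPM in the triple knockout, 381, 525 and 690 CPM in haploinsufficient hearts and 464, 588 and 779 CPM in wild type. None of the 7 triple-knockout libraries reached the wild-type median, and 6 of them lay at 407 CPM or below; replicate 1, at 583 CPM, was within the wild-type range. The log2 fold change was -0.54 ± 0.13 (SE; edgeR adjusted p = 0.0268), and it was -0.65 and -0.41 within the lower and the higher library IDs. With the neural marker score as a term it was -0.67 (edgeR adjusted p = 0.0200). The call was lost without wild-type replicate 1 or 3 or triple-knockout replicate 2, 3, 6 or 7, where the adjusted p ran from 0.0510 to 0.0886, and in limma on log2(FPKM + 0.1), at an adjusted p of 0.0654.

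**Figure D2:**
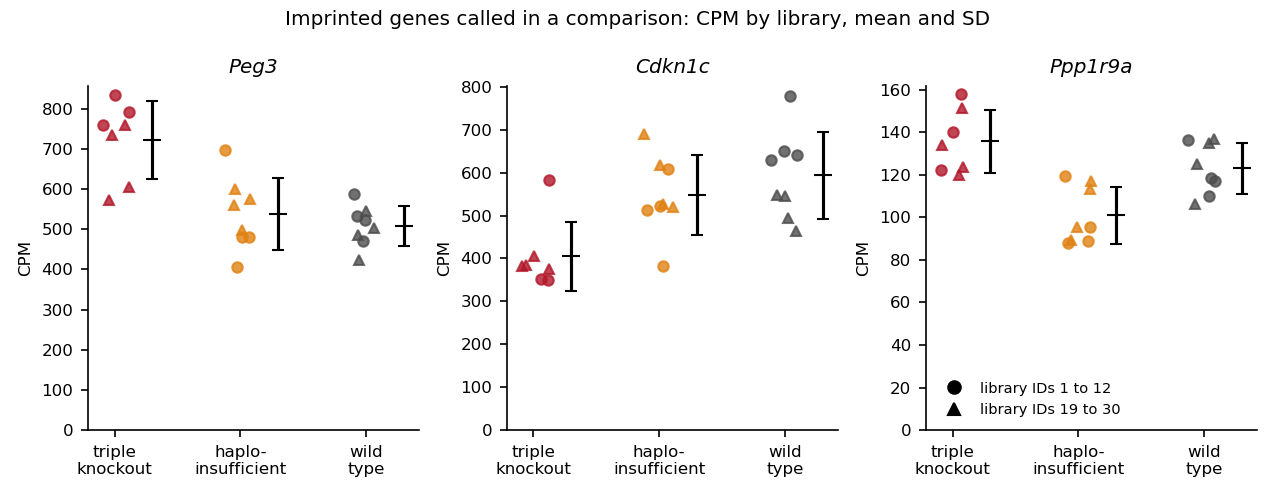
CPM by library for Peg3, Cdkn1c and Ppp1r9a in triple-knockout, haploinsufficient and wild-type hearts, with the mean and SD beside each group; circles are library IDs 1 to 12 and triangles IDs 19 to 30. Peg3 is highest and Cdkn1c lowest in the triple knockout, and for Ppp1r9a the triple-knockout libraries, from 120 CPM up, all lie above the haploinsufficient ones.

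At an unadjusted p under 0.05 stood 6 of 34 members (17.6%), against 10.8% of all genes: 4 were higher, against 5.24% of all genes, and 2 lower, against 5.54%. Peg10, a paternally expressed gene derived from a retrotransposon, had 40.4, 79.2 and 130 CPM in the triple knockout and 34.5, 49.7 and 78.7 CPM in wild type, a log2 fold change of 0.66 ± 0.19 (edgeR adjusted p = 0.0946). It was called by DESeq2 (adjusted p = 0.0475) and by edgeR without the filter (adjusted p = 0.0370), and its adjusted p was 0.676 within IDs 19 to 30 alone. Impact, a regulator of the GCN2 stress kinase, stood at 0.30 ± 0.09 (edgeR adjusted p = 0.148), and the brain-expressed noncoding RNA Peg13 at 0.34 ± 0.15 (edgeR adjusted p = 0.384). Ddc, which makes dopamine and serotonin and has an imprinted start in the heart, stood at -0.37 ± 0.16 (edgeR adjusted p = 0.382). No tested member had triple-knockout and wild-type libraries that did not overlap, which 130 of all genes (0.933%) had.

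In haploinsufficient hearts none of the 34 tested members passed the edgeR test against wild type, where 312 of all genes (2.24%) did, 120 of them higher (0.861%) and 192 lower (1.38%). At an unadjusted p under 0.05 stood 7 members (20.6%), against 17.2% of all genes: 3 were higher, against 8.8% of all genes, and 4 lower, against 8.37%. DESeq2 called 2, Airn and Kcnq1ot1, and limma on log2 FPKM called 0. Both called by DESeq2 are paternally expressed noncoding RNAs that silence their neighbours. Kcnq1ot1 had 431, 657 and 813 CPM in the triple knockout, 309, 521 and 712 CPM in haploinsufficient hearts and 492, 664 and 1451 CPM in wild type, and only 1 of 8 haploinsufficient libraries lay above the wild-type median. Its log2 fold change was -0.57 ± 0.17 (edgeR adjusted p = 0.0701), and -0.34 with the tissue score as a term (edgeR adjusted p = 0.467). Airn had 19.6, 33.9 and 47.3 CPM in haploinsufficient hearts and 36.5, 47.4 and 71.0 CPM in wild type, with 0 of 8 haploinsufficient libraries above the wild-type median and a log2 fold change of -0.59 ± 0.18 (edgeR adjusted p = 0.0845). With the tissue score as a term the value of Airn was -0.18 (edgeR adjusted p = 0.748). Leaving out haploinsufficient replicate 3 gave 3 calls, Airn, Kcnq1ot1 and Ppp1r9a, all lower, and leaving out wild-type replicate 3 or 4 gave 1, Kcnq1ot1.

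The other members past an unadjusted 0.05 in this comparison were Ppp1r9a at -0.29 ± 0.09, Ddc at -0.44 ± 0.16, Impact at 0.23 ± 0.09, H19 at 0.30 ± 0.12 and Nnat at 0.42 ± 0.20 (edgeR adjusted p from 0.0940 to 0.281). The value of Nnat was -0.35 with the tissue score as a term and 0.03 without libraries of a high tissue score. Haploinsufficient libraries of a high tissue score had 80.9 to 121 CPM of Nnat and the other 5 had 46.7 to 75.0 CPM, against 46.9 to 76.7 CPM in wild type. Nnat encodes a small membrane protein of neurons and endocrine cells. Peg3 stood at 0.08 ± 0.10 and Cdkn1c at -0.10 ± 0.12 (edgeR adjusted p = 0.731 and 0.699). Within library IDs 1 to 12 and IDs 19 to 30, Cdkn1c stood at -0.41 and 0.20 in this comparison, on opposite sides of 0. H19 was above the wild-type median in 8 of 8 haploinsufficient libraries. Both comparisons with wild type share its 8 libraries.

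Between the triple knockout and haploinsufficient hearts, which differ by label in 1 GRK2 allele, Ppp1r9a rose, the only tested member called by edgeR; DESeq2 called 4, Ppp1r9a, Peg3 and Peg10 higher and Cdkn1c lower. Ppp1r9a encodes neurabin, an actin-binding partner of protein phosphatase 1, and is maternally expressed in the placenta and some other tissues. Of all genes 55 (0.395%) were called, 11 (0.0789%) higher and 44 (0.316%) lower. Ppp1r9a (chr6:4903320-5165661, mm10, plus strand) had 120, 134 and 158 CPM in the triple knockout, 88.1, 95.5 and 120 CPM in haploinsufficient hearts and 106, 122 and 137 CPM in wild type. Every triple-knockout library lay above every haploinsufficient one, by a margin of under 1 CPM, and 13 of all genes (0.0933%) had groups that did not overlap. The log2 fold change was 0.43 ± 0.09 (SE; edgeR adjusted p = 0.0350), with 0.52 and 0.35 within the lower and the higher library IDs. Against wild type it was 0.14 ± 0.09 in the triple knockout (edgeR adjusted p = 0.645) and -0.29 ± 0.09 in haploinsufficient hearts (edgeR adjusted p = 0.0940).

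The call of Ppp1r9a was lost in 10 of 15 fits that each left out 1 library of these groups, namely haploinsufficient replicate 1, 2, 4, 7 or 8 and triple-knockout replicate 1, 2, 3, 6 or 7, with an adjusted p from 0.0574 to 0.115. It was also lost where only the 2 groups were fitted (adjusted p = 0.126) and without the libraries of a high tissue score (0.35, edgeR adjusted p = 0.485). At an unadjusted p under 0.05 stood 10 members (29.4%), against 15.3% of all genes: 7 were higher, against 7.19% of all genes, and 3 lower, against 8.13%. Peg3, at 0.43 ± 0.11 (edgeR adjusted p = 0.0770), Peg10, at 0.66 ± 0.19 (0.115), and Cdkn1c, at -0.44 ± 0.13 (0.115), had the smallest p among those not called. Airn stood at 0.50 ± 0.19, Ube3a at -0.38 ± 0.14, Meg3 at 0.37 ± 0.15, Peg13 at 0.37 ± 0.15, Plagl1 at 0.37 ± 0.17 and Ndn at -0.22 ± 0.10, with edgeR adjusted p from 0.199 to 0.312. Meg3 stood at 0.76 within IDs 1 to 12 and 0.03 within IDs 19 to 30, and at 0.09 with the neural score as a term; Airn stood at 0.29 and 0.69 within these ID sets. Without haploinsufficient replicate 3, 5 members were called: Peg3, Peg10 and Ppp1r9a higher, Cdkn1c and Ube3a lower.

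**Figure D3:**
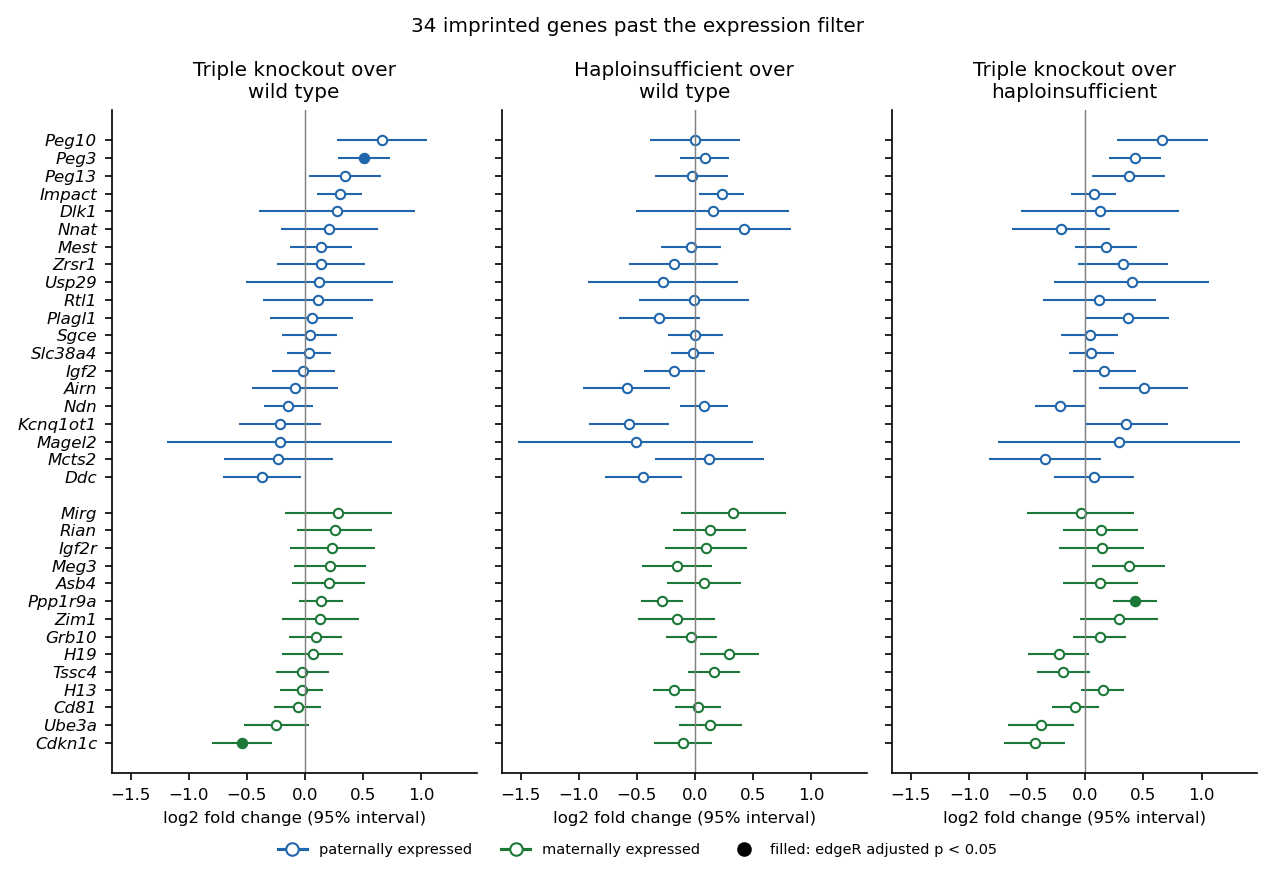
log2 fold change of the 34 tested members with 95% intervals in the 3 comparisons, paternally expressed genes above and maternally expressed genes below, ordered by the first comparison. Filled points passed the edgeR test: Peg3 (0.51) and Cdkn1c (-0.54) in the triple knockout over wild type, none in haploinsufficient hearts over wild type, and Ppp1r9a (0.43) in the triple knockout over haploinsufficient hearts.

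By domain, the Igf2-H19 and Kcnq1ot1 domains of distal chromosome 7 held 6 tested members, of which Cdkn1c was called in the triple knockout over wild type and the other 5 lay between -0.21 and 0.07. Igf2, with 2217, 2816 and 3747 CPM in the triple knockout against 2095, 2735 and 4099 CPM in wild type, gave a log2 fold change of -0.01 ± 0.13. H19, with 10170, 13000 and 15630 CPM in the triple knockout against 9892, 12580 and 15180 CPM in wild type, gave 0.07 ± 0.13. For both the groups covered nearly the same range, and 95% intervals ran from -0.29 to 0.26 for Igf2 and from -0.19 to 0.33 for H19. H19 counts over Igf2 counts averaged 4.97 ± 1.27 in the triple knockout, 6.44 ± 1.17 in haploinsufficient hearts and 4.73 ± 1.31 in wild type (SD), and were not tested. The range of this ratio, from 3.25 to 6.73, from 4.35 to 7.88 and from 2.86 to 7.01 in these groups, overlapped throughout.

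The Peg3 domain held 3 tested members, all with a positive log2 fold change in the triple knockout over wild type: Peg3, the deubiquitinase gene Usp29 at 0.12 ± 0.31 and the maternally expressed zinc finger gene Zim1 at 0.13 ± 0.16. Usp29 was scarce, with 3.29, 4.68 and 6.51 CPM in the triple knockout, 1.34, 3.22 and 8.22 CPM in haploinsufficient hearts and 0.614, 4.44 and 7.28 CPM in wild type, and 35.3% of its exon bases lie over the antisense gene Zim3. The Peg10-Sgce domain of chromosome 6 held 4 tested members with positive values, Peg10, Asb4 at 0.20 ± 0.15, Ppp1r9a and the sarcoglycan gene Sgce at 0.04 ± 0.12. Ndn, Magel2 and Ube3a, of the region deleted in Prader-Willi and Angelman syndromes, had -0.14 ± 0.10, -0.22 ± 0.47 and -0.25 ± 0.14. The 9 genes of these domains other than Peg3 had edgeR adjusted p between 0.0946 and 0.946.

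In the Dlk1-Dio3 domain of chromosome 12, all 5 tested members had positive values in the triple knockout over wild type, from 0.11 for the retrotransposon-derived Rtl1 to 0.29 for Mirg, and none was called. These signs were not stable: within IDs 19 to 30 Dlk1 stood at -0.25, Meg3 at -0.13 and Rtl1 at -0.25, and with the neural score as a term at -0.80, -0.19 and -0.53. Dlk1 and Rtl1 also turned negative with the tissue score as a term, at -0.67 and -0.50, and without libraries of a high tissue score, at -0.20 and -0.15. Dlk1, a Notch-like inhibitor of differentiation, had 24.1, 30.9 and 84.7 CPM in the triple knockout, 16.3, 35.0 and 84.8 CPM in haploinsufficient hearts and 20.3, 36.2 and 79.6 CPM in wild type. Libraries of every group were spread over more than 3-fold, and its biological coefficient of variation of 0.435 was the second highest among tested members after Magel2. Meg3, a maternally expressed noncoding RNA of the domain, had 238, 378 and 529 CPM in the triple knockout, 209, 280 and 360 CPM in haploinsufficient hearts and 238, 295 and 412 CPM in wild type. Rian had 158, 192 and 306 CPM in the triple knockout, 154, 198 and 260 CPM in haploinsufficient hearts and 151, 170 and 256.2 CPM in wild type. Mirg had 11.6, 17.5 and 24.2 CPM in the triple knockout, 11.7, 15.1 and 32.6 CPM in haploinsufficient hearts and 11.7, 12.4 and 21.2 CPM in wild type. The groups overlapped for all of these.

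Of genes that restrain growth, Igf2r stood at 0.24 ± 0.18 and Grb10 at 0.09 ± 0.11 in the triple knockout over wild type, against -0.54 for Cdkn1c. Igf2r had 4081, 6301 and 6790 CPM in the triple knockout and 3521, 4915 and 6035 CPM in wild type. Of genes that promote growth, Mest stood at 0.14 ± 0.13 and the zinc finger gene Plagl1 at 0.06 ± 0.17. Slc38a4, an amino acid transporter, stood at 0.03 ± 0.09, Nnat at 0.21 ± 0.20, the splicing factor gene Zrsr1 at 0.14 ± 0.18, and H13 and Mcts2, a host gene and the retrogene in its intron, at -0.03 ± 0.09 and -0.23 ± 0.23. Cd81 stood at -0.06 ± 0.10 and Tssc4 at -0.02 ± 0.11. The edgeR adjusted p of these 11 comparisons lay between 0.709 and 0.968. Kcnq1ot1 lies inside Kcnq1, and Airn starts inside Igf2r and runs against it, so without strand, reads from precursors of the host genes cannot be told apart from the noncoding RNAs.

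The triple knockout over wild type gave a median log2 fold change of 0.09 over the 20 tested paternally expressed genes, of which 13 were positive, and 0.11 over the 14 maternally expressed genes, of which 9 were positive. The median over the 34 was 0.10, and 0.01 over all genes tested. In haploinsufficient hearts over wild type the medians were -0.03 with 7 positive and 0.05 with 8 positive, against 0.01 over all genes. In the triple knockout over haploinsufficient hearts they were 0.17 with 17 positive and 0.13 with 8 positive, against 0.00 over all genes. Of all 13941 genes tested, 7230, 7251 and 7030 were positive in these comparisons, in the order given.

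Per library, the mean log2 CPM of tested paternally expressed members lay below that of maternally expressed ones in every group. The paternal minus maternal mean was -1.83 ± 0.12 in the triple knockout (SD, n = 7), -1.98 ± 0.16 in haploinsufficient hearts (n = 8) and -1.85 ± 0.15 in wild type (n = 8). The triple knockout differed from wild type by 0.03, haploinsufficient hearts from wild type by -0.13 and the triple knockout from haploinsufficient hearts by 0.155. The groups overlapped in each comparison. The first 2 differences were smaller than the pooled SD between libraries, 0.14 and 0.15, the last was slightly larger than its pooled SD of 0.14, and no test was made of a score over the members. Without genes imprinted mainly outside the heart these differences were 0.00, -0.13 and 0.13.

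**Figure D4:**
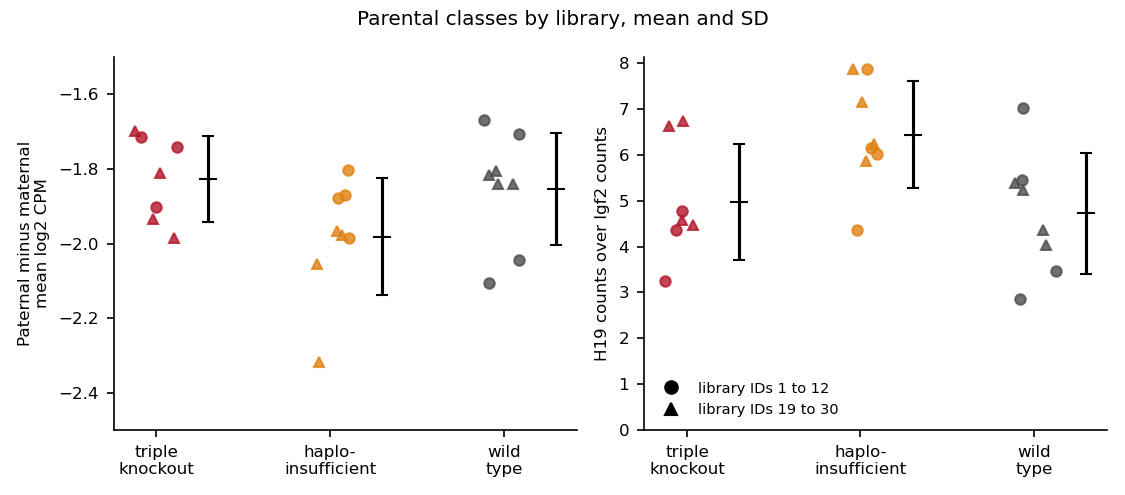
The paternal minus maternal mean log2 CPM (left) and the ratio of H19 to Igf2 counts (right) by library in triple-knockout, haploinsufficient and wild-type hearts, with the mean and SD beside each group; circles are library IDs 1 to 12 and triangles IDs 19 to 30. The groups overlap in both panels, and haploinsufficient hearts average -1.98 on the left and 6.44 on the right.

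Neighbours that share a domain were compared across the 23 libraries after the mean of each group within each ID set had been removed from log2 CPM. Of 15 pairs listed, 13 could be computed, and 5 were called at an adjusted p under 0.05 over the 13, from 100000 permutations of libraries within group and ID set. Pairs of genes outside these domains were not measured, so the count says nothing of what sets neighbours apart from other gene pairs. Rian and Mirg, maternally expressed hosts in 1 domain, gave r = 0.855 (permutation p = 0.00083, adjusted 0.0063; rho = 0.798, permutation p = 0.0012). Without the 2 libraries farthest from the median of the first gene, r was 0.791. Meg3, which lies in front of them, gave r = 0.530 with Mirg (adjusted permutation p = 0.0196; rho = 0.570, p = 0.003; 0.492 without the 2 libraries). Dlk1 and Meg3, expressed from opposite parental alleles, gave r = 0.587 (adjusted permutation p = 0.0326; rho = 0.591, p = 0.00541; 0.480 without the 2 libraries).

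Peg3 and Usp29, the head-to-head pair with the shared promoter stretch, gave r = 0.562 (adjusted permutation p = 0.0363) and rho = 0.554 (permutation p = 0.0172). Without the 2 libraries r was 0.525. Those 2 were chosen by Peg3 and left in wild-type replicate 7, where Usp29 deviated by -1.95. Usp29 stood there at 0.614 CPM, against a floor of 0.611 CPM in that library. Cdkn1c and Kcnq1ot1, the inhibitor and the noncoding RNA that silences it on the paternal chromosome, ran in opposite directions, with r = -0.558 (adjusted permutation p = 0.0063; rho = -0.603, p = 0.00123; -0.590 without the 2 libraries). Igf2 and H19, which share enhancers on opposite alleles, gave r = -0.101 (adjusted permutation p = 0.857; rho = -0.117, p = 0.657), and Igf2r and Airn gave 0.288 (adjusted permutation p = 0.304; rho = 0.266, p = 0.276). The other 6 pairs, with adjusted permutation p from 0.062 to 0.893, gave r of 0.546 for Peg3 and Zim1, -0.444 for Peg10 and Sgce, 0.493 for Meg3 and Rian, 0.413 for H13 and Mcts2, 0.061 for Grb10 and Ddc, and 0.045 for Ndn and Magel2.

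With the neural score removed, r was 0.017 for Dlk1 and Meg3 and -0.060 for Meg3 and Mirg, while it was 0.636 for Rian and Mirg (adjusted permutation p = 0.0359) and -0.540 for Cdkn1c and Kcnq1ot1 (0.0339). Peg3 and Usp29 gave 0.503 (0.133). With the tissue score removed instead, r was 0.82 for Dlk1 and Meg3 (adjusted permutation p = 0.00455) and 0.673 for Meg3 and Mirg (0.0112). The other called pairs also stayed called there. In each fit that left out 1 library, Rian with Mirg stayed between 0.812 and 0.903 and Cdkn1c with Kcnq1ot1 between -0.623 and -0.508, and both stayed called. Peg3 with Usp29 lost its call in 10 such fits, Dlk1 with Meg3 in 5 and Meg3 with Mirg in 2, with r between 0.388 and 0.723 for the 3 pairs.

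**Figure D5:**
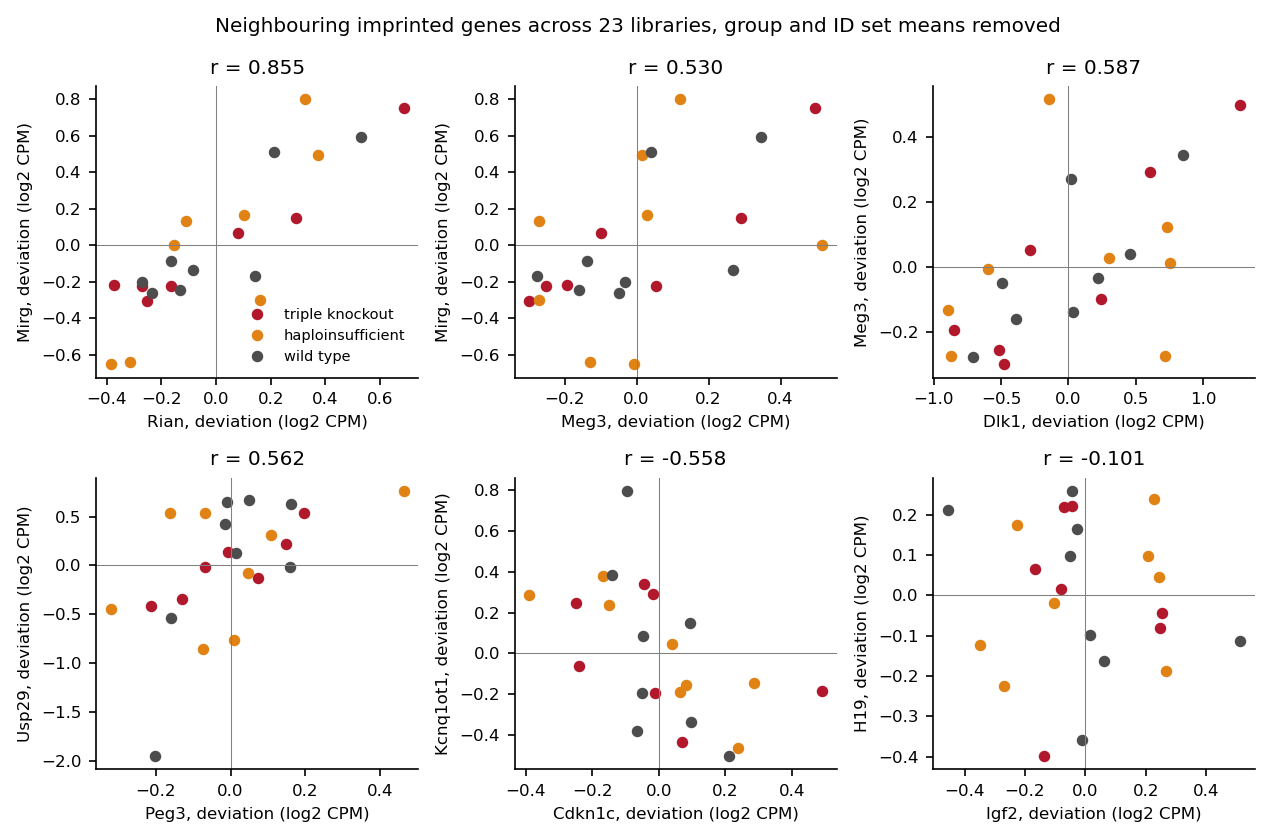
Deviations of log2 CPM from the mean of each group and ID set for the 5 called pairs of neighbouring imprinted genes and for Igf2 with H19, 1 point per library coloured by genotype. Rian and Mirg lie along a rising line (r = 0.855), Kcnq1ot1 and Cdkn1c along a falling one (r = -0.558), and Igf2 and H19 have r = -0.101.

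Other genes of the same biology were read from 3 lists. Of 37 further imprinted genes, 33 were in the table and 24 were tested; none was called in any of the 3 comparisons by edgeR, and 2, 3 and 2 (8.33%, 12.5% and 8.33%) passed an unadjusted p of 0.05 in the triple knockout over wild type, haploinsufficient hearts over wild type and the triple knockout over haploinsufficient hearts, against 10.8%, 17.2% and 15.3% of all genes. Those with the smallest p in the triple knockout over wild type were Inpp5f at 0.34, Dhcr7 at 0.40, Ano1 at 0.31 and Commd1 at -0.20 (edgeR adjusted p from 0.289 to 0.609). Xist, the X-inactivation RNA of this list, varied widely within each group. It averaged 177 ± 214 CPM in the triple knockout, 152 ± 123 in haploinsufficient hearts and 194 ± 181 in wild type (SD). The sex of the embryos was not a term in any fit. Of 29 genes that set or keep imprints, such as DNA methyltransferases and their partners, 27 were tested, and 1 of them (3.7%) was called in haploinsufficient hearts over wild type, against 2.24% of all genes, so the list's share lay near that of all genes. The called gene was Uhrf1, which brings the maintenance methyltransferase to newly copied DNA. Uhrf1 averaged 226 ± 42.75 CPM in haploinsufficient hearts and 178 ± 14.5 CPM in wild type (SD, n = 8 each), a log2 fold change of 0.33 ± 0.09 (edgeR adjusted p = 0.0398). In the triple knockout over wild type it stood at 0.21 ± 0.09 (edgeR adjusted p = 0.343), beside Zfp445 at 0.27, Cbx5 at 0.22 and Ehmt1 at 0.14 (edgeR adjusted p from 0.324 to 0.554).

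Of 29 genes of IGF and insulin signalling, 27 were tested and none was called by edgeR in any comparison, with 4, 6 and 7 (14.8%, 22.2% and 25.9%) past an unadjusted p of 0.05 in these comparisons, against 10.8%, 17.2% and 15.3% of all genes. The smallest p in the triple knockout over wild type belonged to the adaptor gene Irs2 at -0.35 ± 0.11 (edgeR adjusted p = 0.135), and others with a small p were the binding protein gene Igfbp2 at -0.45 and Igf2bp2 at 0.19 (edgeR adjusted p = 0.395 and 0.444). The median log2 fold changes of the 3 lists in that comparison were -0.02, 0.07 and 0.07, against 0.01 over all genes.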

How the data were processed

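Heart RNA was sequenced in 23 libraries from 1 end after ribosomal RNA depletion, without strand, per the labels' protocols. The authors deposited integer counts per gene for 23512 rows, aligned to mm10 with TopHat2 (2.0.10) and Bowtie2 and counted with HTSeq, and FPKM values for 23885 entries from Cufflinks (2.1), per the submitters' processing notes. No version is given there for Bowtie2 or HTSeq. Counts were tested with edgeR (4.0.16, R 4.3.3) by quasi-likelihood over all 23 libraries, with TMM scaling and coefficients for the 3 groups and for the run of library IDs, called the ID set (1 to 12, with 3 triple-knockout, 4 haploinsufficient and 4 wild-type libraries; 19 to 30, with 4 of each). The expression filter asked for 10 counts as its minimum and 15 in total. Two-sided p-values were adjusted by Benjamini-Hochberg over all 13941 genes tested in each comparison, at 0.05. The 3 targeted genes and Nkx2-5, summed from single-exon rows, and Cre were not tested. The prior count of log2 CPM was 1. Marker scores are mean log2 CPM against wild type. All members are named; values by library are given for called members, the 8 most abundant by wild-type FPKM and called pairs, and up to 4 genes of each other list with the smallest p are named, of which 1 is not reported here. Members and lists were chosen with earlier results of these data known, and the expressed allele is taken from general knowledge of the mouse. No 2 libraries of a group agreed within sampling noise (lowest chi-square per degree of freedom 5.19). The fit and the pair test were tested on simulated data. Alternatives were RLE scaling, no filter, other terms, either ID set by itself, a block on the replicate number, DESeq2 (1.42.0), limma (3.58.1) on log2 FPKM with a pseudocount of 0.1 or 1, and each library left out. The neural score term and leaving out libraries of a high tissue score were chosen after seeing the data. Floors cover counting error only.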

Additional observations from a re-analysis of the deposited data

Results flagged for a closer look

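Within the groups of 7 or 8 libraries, 108 sets of values were searched by Dixon's ratio for a library far from the rest. Of these sets, 11 (10.2%) held one. The limit flags about 1 in 20 sets of independent, normally distributed values. Most sets here were CPM on a linear scale and all came from the same libraries, so no excess can be read from this share. Triple-knockout replicate 1 had 583 CPM of Cdkn1c where the next library had 407, and 4.71 CPM of Magel2 where the next had 1.68. Haploinsufficient replicate 2, the shallowest library, had 1.75 CPM of Zrsr1 where the next lowest had 9.87, against a floor of 1.71 CPM in that library. The same library had 94.0 CPM of Ddc where the next highest had 65.3. Wild-type replicate 1 had 4099 CPM of Igf2 where the next had 2847, and 71.0 CPM of Airn where the next had 51.0. Wild-type replicate 2 had 1451 CPM of Kcnq1ot1 where the next had 886. Wild-type replicate 3 had 838 CPM of Cd81 where the next had 694. Wild-type replicate 4 had 76.7 CPM of Nnat where the next had 58.5, and 0 CPM of Magel2 where the next lowest had 1.70, against a floor of 0.782 CPM in that library. Wild-type replicate 5 had 79.6 CPM of Dlk1 where the next had 45.7. No cause of these values was tested.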

How the results depend on the processing

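The number of members called in the triple knockout over wild type, 2, stayed at 2 under RLE scaling, without the ID set term, in the fit of only these groups and with the tissue score as a term, and was 3 without a filter and in DESeq2. It was 1 with the neural score, without libraries of a high tissue score and in limma at either pseudocount, and 0 within each ID set alone. In haploinsufficient hearts over wild type the count was 0, but 2 without a filter, with the tissue score and in DESeq2. In the triple knockout over haploinsufficient hearts it was 1, but 0 in the fit of only these groups, within each ID set, without libraries of a high tissue score and in limma, 2 with the tissue or the neural score and 4 in DESeq2. Leaving out 1 library each gave 1 to 3, 0 to 3 and 0 to 5 calls in these comparisons. With the replicate number as a block the counts were 1, 0 and 0, with Peg3 called in the first (edgeR adjusted p = 0.0294), and 5 pairs, where Dlk1 with Meg3 lost its call (adjusted permutation p = 0.0546) and Peg3 with Zim1 gained one (0.0202); same-numbered libraries did not deviate together (22 pairs, median correlation -0.0574, from -0.264 to 0.480, 2 over 0.1; 4 libraries correlated best with their own number). With the tissue score as a term Dlk1 turned to -1.08 in haploinsufficient hearts over wild type (edgeR adjusted p = 0.0355). The 5 called pairs became 2 with the neural score removed, where Meg3 and Mirg turned to -0.060, and 0 in wild type alone (8 libraries); leaving out 1 library gave 2 to 8. Counts under 5 came without wild-type replicate 3 (3), 5 (2), 6 (4) or 7 (4), haploinsufficient replicate 1 (4) or triple-knockout replicate 4 (3), 5 (3), 6 (4) or 7 (2), and counts above it without wild-type replicate 1 (6) or haploinsufficient replicate 2 (8). The paternal minus maternal differences moved by less than the SD between libraries under every alternative run, and ran from -0.0090 to 0.0533, from -0.164 to -0.0799 and from 0.107 to 0.181 with 1 library left out. Causes of these shifts were not tested. Fits within each ID set, and the pairs in wild type alone, also rested on fewer libraries.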
